A study of Mus musculus with 6 samples.

Results

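A set of 9 retinoid genes was examined in whole lungs of tumour-bearing mice: Lrat, Rbp4, Stra6, Rdh10, Aldh1a1, Aldh1a2, Cyp26b1, Rara and Rarb. They are 9 of the 35275 gene rows in each count table, found by Ensembl identifier. The set was chosen by the counts of Lrat, which were lower in KO lungs, and the other 8 genes were added because they act in the same pathway. Balb/c mice had received 4T1 cells, a breast carcinoma line that arose in this strain, through the tail vein. In the KO group (3 libraries) the injected cells lacked PD-L1 ("4T1.PD-L1 KO"), and in the WT group (3 libraries) they were unmodified ("4T1.WT"). Lungs of both groups were taken after 7 days and perfused with 20 mL of PBS, and bulk RNA was sequenced. The host mice carry no labelled edit, so KO refers to the tumour cells only. The sources used here do not say whether the KO line is 1 clone or how old the mice were. The design has no tumour-free lung, so loss of PD-L1, another difference between the injected lines and a difference in tumour load cannot be told apart.

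Vitamin A travels in blood as retinol bound to the carrier protein RBP4, and the membrane receptor STRA6 takes it into cells. Inside the cell, LRAT joins retinol to a fatty acid to make retinyl esters, the storage form. RDH10 oxidises retinol to retinal, the ALDH1A enzymes oxidise retinal to retinoic acid, and CYP26 enzymes inactivate retinoic acid. Retinoic acid acts through the nuclear receptors RAR, which pair with RXR on DNA. In rodent lung, retinyl esters are known to be kept in interstitial fibroblasts that hold lipid droplets, and retinoic acid is known for its part in forming alveoli.

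The classic target element of this pathway lies in front of a start site inside the annotated span of Rarb (chr14, 16430839 to 16819156, minus strand). It is shown because Rarb is both a receptor and a gene that retinoic acid induces. RefSeq promoter windows (GRCm38.p6, 250 bases before to 50 after a start site) were held for 8 of the 9 genes, in 16 windows. Both strands were searched for pairs of hexamers in the same direction with 5 bases between. The 4 hexamers were AGGTCA as the consensus, and as its variants AGTTCA in the first place, GGGTCA in the next and GGTTCA in the last, in any combination. A separate search allowed 2 bases between. With 5 bases between, 1 of the 8 genes matched, Rarb, and such repeats were found for 0.115% of the 27025 genes with a window. With 2 bases between, 0 of the 8 matched, against 0.311% of those genes. The match begins 53 bases before the start site. It is shown with its flanks, at chr14:16575503-16575539 on the minus strand, with the hexamers in capitals:
Rarb: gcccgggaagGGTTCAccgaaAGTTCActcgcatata
A match is a description of these letters. No binding was measured here.

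Libraries held 15222408 to 16469780 counts in KO lungs and 14711459 to 16932114 in WT lungs. A count of 0 allows, at 3 counts, 0.176 to 0.206 CPM (counts scaled to a common library size), for counting error only. Cd274, the gene of PD-L1, had 1514, 3013 and 4929 counts in KO lungs and 910, 912 and 1132 in WT lungs. Every KO lung had more counts than every WT lung, which is the opposite of the direction that the KO label names. The edit is in the injected cells and the host keeps the gene, so these whole-lung counts do not check the labels, and KO and WT are used as the labels give them. Lung markers were present: the 7 alveolar type 2 markers summed to 11661 to 14489 CPM in KO lungs and 12090 to 13671 CPM in WT lungs. The labels do not say that each library is 1 mouse. SDs give the spread between these libraries, and p-values set the group difference against the variation between them. Whether either extends to mice is not known. On the first principal component of all tested genes, KO replicate 1 lay at 0.18, between the other KO libraries (34.9 and 46.7) and the WT libraries (-31.1 to -21.0). Without it, 404 genes passed as higher and 174 as lower over the whole table by edgeR, against 170 and 51 with all libraries. Without KO replicate 2 or 3, or WT replicate 1 or 2, 22 to 36 passed as higher and 2 to 5 as lower.

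Lrat, the gene on which the choice rests, was lower in KO lungs. It had 120.3, 146.8 and 150.0 CPM in KO replicates 1 to 3, against 198.5, 279.9 and 241.6 CPM in WT replicates 1 to 3. Every KO lung lay below every WT lung, and the groups did not overlap. The means were 139.0 ± 16.3 CPM in KO lungs and 240.0 ± 40.8 CPM in WT lungs (SD, n = 3 each), a ratio of 0.579 and a log2 difference of -0.79 ± 0.13 (SE). The difference was -0.70 without KO replicate 1. Without KO replicate 2 (-0.83) or WT replicate 2 (-0.66) Lrat no longer met the threshold over all genes. Lrat lies on chromosome 3 (GRCm38, 82892579 to 82903973, minus strand), and 0 of its 5351 exonic bases overlap exons of another annotated gene. Because Lrat was chosen for this difference, the contrast is given as a description without a p-value for all 9 genes.

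Of the 9 genes, 8 had enough counts to be tested and 1 of these, Lrat, passed over all genes with edgeR (quasi-likelihood test, Benjamini-Hochberg adjusted p under 0.05), as lower in KO lungs. Over all 15191 genes tested, 1.45% passed, 1.12% as higher and 0.336% as lower. The other 7 did not pass. Of the 8 tested genes, 4 had positive and 4 negative log2 differences, with a median of -0.04, and the median of all genes tested was 0.01. In 2 of the 8, Lrat and Aldh1a1, all KO libraries lay below all WT libraries, as they did in 9.4% of all genes tested, while 10.3% of genes were separated in the higher direction. Since the choice used this contrast, nothing is read from these counts. Cyp26b1 had a larger log2 difference than Lrat and a wider spread. Of the other genes (GRCm38), Rbp4 (38116629 to 38125281) and Aldh1a1 (20492715 to 20643465) lie on chromosome 19, and Stra6 (58063788 to 58153996) and Aldh1a2 (71215789 to 71296243) on chromosome 9. Rdh10 lies on chromosome 1 (16105774 to 16133734), Cyp26b1 on chromosome 6 (84571414 to 84593908), Rara on chromosome 11 (98927818 to 98974942) and Rarb on chromosome 14 (16430839 to 16819156).

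**Figure D1:**
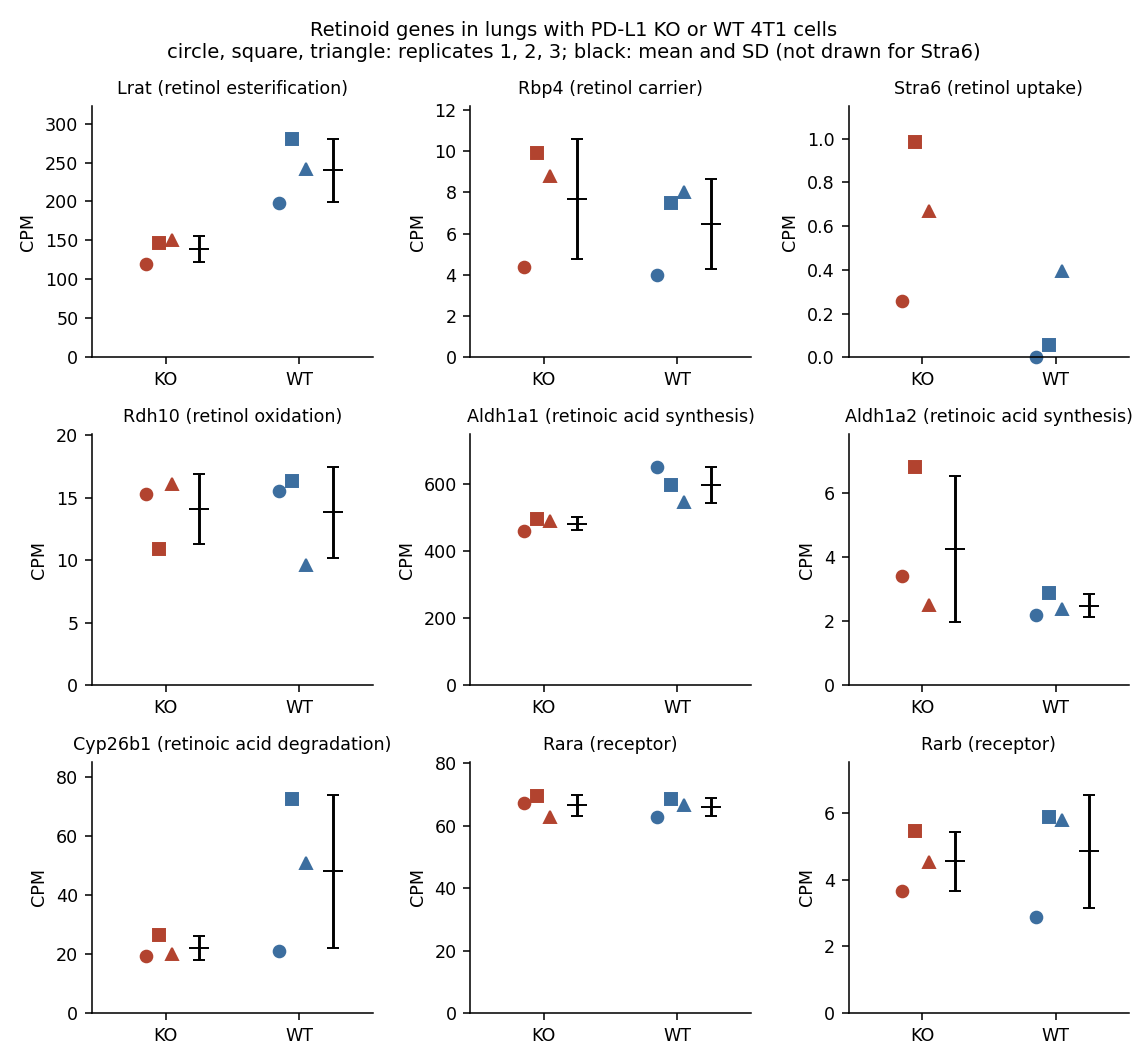
CPM of the 9 genes in each library, KO lungs left and WT lungs right, with a panel and a linear axis from 0 for each gene. Circles, squares and triangles are replicates 1, 2 and 3, and black bars are the mean and SD of 3 libraries. Lrat and Aldh1a1 are the panels in which the groups do not overlap, and WT replicate 1 lies with the KO lungs for Cyp26b1.

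Rbp4 and Stra6, the genes that bring retinol to the cell, were low in CPM, which takes no account of gene length. Rbp4, which encodes the blood carrier of retinol and is made mainly by liver, had 4.38, 9.89 and 8.78 CPM in KO lungs, against 3.99, 7.46 and 8.01 CPM in WT lungs. The groups overlapped, with replicate 1 lowest in each, and the log2 difference was 0.24 ± 0.35. With single libraries left out it ran between -0.01 (without WT replicate 1) and 0.52 (without KO replicate 1), and it did not pass in any of these. In RNA of a whole organ, a change in the number of cells of a type and a change in RNA per cell cannot be told apart. The 5 hepatocyte markers (Alb, Apoa1, Apoa2, Ttr and Fgb) summed to 14.2 to 32.3 CPM in KO lungs and 7.94 to 20.7 CPM in WT lungs. None of the 5 passed the test, and their part in the Rbp4 values was not tested.

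Stra6, the retinol receptor gene, had 4, 15 and 11 counts in KO lungs and 0, 1 and 6 counts in WT lungs. The ranges overlapped, and it was the gene with too few counts to be tested. These are 0.257, 0.983 and 0.671 CPM in KO lungs and 0, 0.0587 and 0.394 CPM in WT lungs. With at most 15 counts in a library, no fold is stated.

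Rdh10, the gene of the first oxidation step, had 15.3, 10.9 and 16.1 CPM in KO lungs, against 15.5, 16.3 and 9.65 CPM in WT lungs. The groups overlapped over nearly the whole range, and the log2 difference was 0.02 ± 0.25. It was -0.18 in 1 setting and 0.18 in another when single libraries were left out, so these data give it no direction.

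Aldh1a1, which encodes a retinal dehydrogenase also known for detoxifying other aldehydes, was the most abundant of the 9. It had 460.6, 497.2 and 489.6 CPM in KO lungs, against 652.5, 598.3 and 545.4 CPM in WT lungs. Every KO lung lay below every WT lung, although the highest KO value and the lowest WT value were close. The means were 482.5 ± 19.3 CPM in KO lungs and 598.8 ± 53.5 CPM in WT lungs, a log2 difference of -0.31 ± 0.11 that did not pass with edgeR and passed with DESeq2. Without KO replicate 1 it was -0.28. Mice also have Aldh1a7, a near-identical neighbour copy, and the sources used here do not say how reads shared by the copies were counted. Aldh1a7 had 33.0, 26.5 and 18.2 CPM in KO lungs, against 17.4, 19.4 and 28.2 CPM in WT lungs. Its groups overlapped, and per length it averaged 43.0 TPM in KO lungs and 38.4 TPM in WT lungs, below the TPM of Aldh1a1 given further on.

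Airway cells are known to express Aldh1a1, and 6 club cell markers were examined beside it. Of these, 2 passed as higher (Cyp2f2 and Hp), against 1.12% of all genes tested. In 4 the KO lungs all lay above the WT lungs, against 10.3% of all genes tested. The groups overlapped for Scgb3a1 (0.11 ± 0.85) and Aldh3a1 (0.40 ± 0.56). All 6 log2 differences were positive, with a median of 1.10, and the summed level was 1812 to 3760 CPM in KO lungs and 520.6 to 1096 CPM in WT lungs. Their part in the Aldh1a1 values was not tested.

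Aldh1a2, the retinal dehydrogenase gene that is essential in mouse embryos, was low in both groups. It had 3.41, 6.81 and 2.50 CPM in KO lungs, against 2.20, 2.88 and 2.36 CPM in WT lungs. KO replicate 2 stood above all other libraries, and the groups overlapped. The log2 difference was 0.77 ± 0.45 with all libraries 0.25 without KO replicate 2 and 0.90 without KO replicate 1. The 7 mesothelial markers with a row summed to 30.8, 34.1 and 55.8 CPM in KO lungs and 46.0, 50.1 and 32.0 CPM in WT lungs. Most of each sum was Gpm6a, with 27.2, 19.8 and 33.7 CPM in KO lungs and 38.1, 43.5 and 25.3 CPM in WT lungs. Of the 4 tested, 0 passed, with 3 log2 differences positive and 1, of Gpm6a, negative. In KO replicate 2, Msln (7.67 CPM) and Upk3b (5.24 CPM) lay above all WT lungs (at most 4.58 and 1.99 CPM). Upk1b and Wt1 were at 0 in that library. In KO replicate 3, where Aldh1a2 had 2.50 CPM, Msln (13.5 CPM) and Upk3b (2.93 CPM) also lay above all WT lungs. In KO replicate 1 Msln (0.515 CPM) and Upk3b (0.708 CPM) lay below all WT lungs. Bnc1 was at 0 in all WT lungs and had 0, 7 and 19 counts in KO lungs. The part of these markers in the Aldh1a2 values was not tested.

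Cyp26b1, which encodes an enzyme that clears retinoic acid, had the largest fitted log2 difference of the 8 tested genes. It had 19.2, 26.7 and 20.0 CPM in KO lungs, against 21.0, 72.6 and 50.9 CPM in WT lungs. WT replicate 1 lay within the KO range, and WT replicates 2 and 3 lay well above it. The means were 22.0 ± 4.09 CPM in KO lungs and 48.2 ± 25.9 CPM in WT lungs, and the coefficient of variation was 18.6% in KO lungs and 53.9% in WT lungs. The log2 difference, -1.13 ± 0.41, missed the threshold. It was -1.50 without WT replicate 1, where it passed, -0.71 without WT replicate 2, where it did not, and -1.05 without KO replicate 1, where it did not.

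The receptor gene Rara varied little. It had 67.3, 69.5 and 62.7 CPM in KO lungs, against 62.9, 68.6 and 66.7 CPM in WT lungs. The groups overlapped, the coefficients of variation were 5.26% in KO lungs and 4.38% in WT lungs, and the log2 difference was 0.01 ± 0.11. Over 15 alternatives it lay between -0.03 and 0.05, with the opposite sign in 5 of them (RLE factors, DESeq2 and 3 libraries left out in turn), so it has no direction here.

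Rarb, the receptor gene with the element printed above, had 3.67, 5.44 and 4.51 CPM in KO lungs, against 2.89, 5.87 and 5.78 CPM in WT lungs. The groups overlapped, replicate 1 was the lowest of each group, and the log2 difference was -0.10 ± 0.36. It was positive in 3 of 15 alternatives (without KO replicate 1, WT replicate 2 or WT replicate 3) and at most 0.07, so no direction is given. On the opposite strand, exons of Top2b cover 1793 of the 5265 exonic bases of Rarb, and those of Gm48162 cover 227. Top2b had 2888, 3085 and 3124 counts in KO lungs and 3281, 4195 and 3134 in WT lungs, against 57, 83 and 74 counts of Rarb in KO lungs and 42, 100 and 88 in WT lungs. Without a stated strand setting, reads of these genes cannot be told apart where they overlap, and the Rarb values are uncertain.

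Levels were compared between genes as TPM, in which counts are divided by exonic length before scaling to a common total. In KO lungs the order was Aldh1a1 (334.0 ± 8.83 TPM), Lrat (88.7 ± 8.58), Rara (52.1 ± 3.63), Rbp4 (19.5 ± 7.17), Cyp26b1 (14.0 ± 2.59), Rdh10 (11.6 ± 2.29), Aldh1a2 (6.42 ± 3.44), Rarb (2.94 ± 0.547) and Stra6 (0.372 ± 0.211). In WT lungs it was Aldh1a1 (445.4 ± 44.4 TPM), Lrat (165.2 ± 33.1), Rara (55.6 ± 4.06), Cyp26b1 (33.3 ± 18.9), Rbp4 (17.8 ± 6.08), Rdh10 (12.3 ± 3.52), Aldh1a2 (4.03 ± 0.722), Rarb (3.39 ± 1.23) and Stra6 (0.0933 ± 0.130). The ranges of the first 3 genes stood apart from each other in each group, and so did Stra6 from Rarb. Neighbours from Rbp4 to Aldh1a2 overlapped in KO lungs. In WT lungs Cyp26b1 overlapped with Rbp4, Rbp4 with Rdh10, and Aldh1a2 with Rarb. The place of Cyp26b1 against Rbp4 differed between the groups, within these overlaps. With the length of the longest transcript in place of all exonic bases, Aldh1a1 had 546.7 TPM in KO lungs and 726.6 TPM in WT lungs. The order then changed in WT lungs, where Rarb (4.47 TPM) stood above Aldh1a2 (3.14 TPM), again with overlap.

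**Figure D2:**
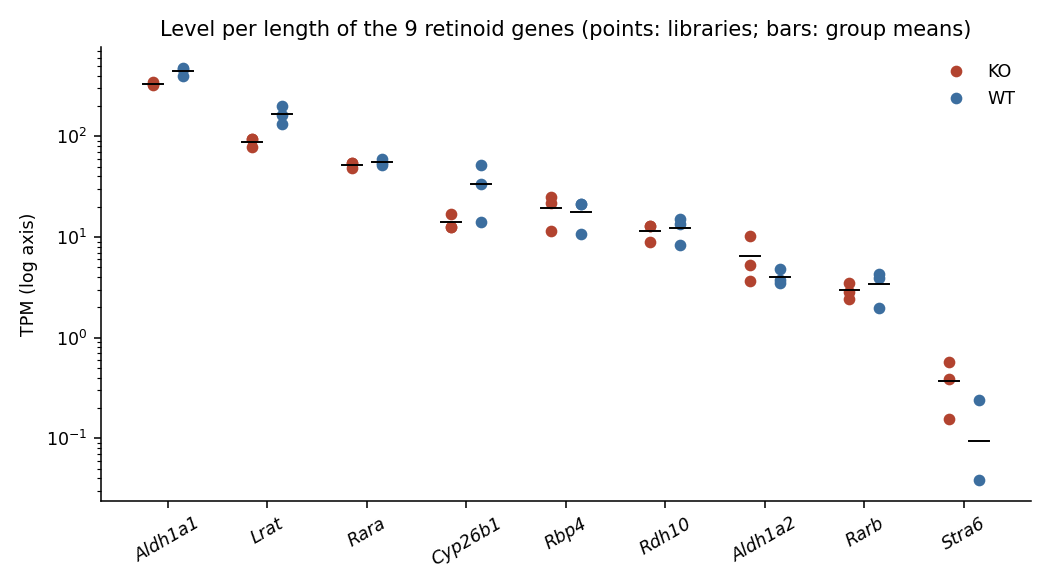
TPM of the 9 genes on a log axis, KO lungs left of WT lungs for each gene, in the order of the WT means. Points are libraries and black bars are group means, and a value of 0 (Stra6 in WT replicate 1) has no point. Aldh1a1, Lrat and Rara are the 3 highest genes in each group.

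Aldh1a1 took most of the summed TPM of the 9 in every library. Aldh1a1 made up 61.7% to 64.8% of their summed TPM in KO lungs and 56.5% to 67.5% in WT lungs, which overlap. Lrat made up 15.6% to 17.8% in KO lungs and 18.9% to 24.4% in WT lungs, without overlap. Aldh1a1 exceeded Aldh1a2 by 33.5 to 89.8 times in KO lungs and 95.4 to 136.0 times in WT lungs, on the TPM scale. With the longest transcript as length, these were 70.1 to 188.0 times in KO lungs and 199.6 to 284.8 times in WT lungs. Aldh1a1 then made up 74.9% to 77.3% in KO lungs and 71.1% to 79.8% in WT lungs, and Lrat 8.89% to 10.3% in KO lungs and 10.7% to 14.7% in WT lungs. Rara exceeded Rarb by 15.4 to 22.1 times in KO lungs and 13.9 to 26.3 times in WT lungs.

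Lrat expression is known from vitamin A-storing stellate cells of the liver, and markers of mesenchymal cells were examined beside it. Of 11 alveolar fibroblast markers, 2 passed as lower in KO lungs, against 0.336% of all genes tested. They were the receptor gene Pdgfra (log2 difference -0.46 ± 0.11, edgeR adjusted p = 0.0485) and the integrin gene Itga8 (-0.52 ± 0.11, edgeR adjusted p = 0.0402). Of the 11, 7 log2 differences were negative and 4 positive (Tcf21, Col13a1, G0s2 and Plin2), with a median of -0.36. In 6 the KO lungs all lay below the WT lungs, against 9.4% of all genes tested, and in 1, G0s2, they lay above, with 67.1 to 72.8 CPM in KO lungs and 52.7 to 55.9 CPM in WT lungs. The summed level of the list was 5426 to 5994 CPM in KO lungs and 6808 to 7236 CPM in WT lungs. Of 7 pericyte markers, 2 passed as lower, against the same 0.336%: Pdgfrb (-0.63 ± 0.13, edgeR adjusted p = 0.0347) and Notch3 (-0.60 ± 0.11, edgeR adjusted p = 0.0161). In 5 of the 7 the KO lungs all lay below the WT lungs, against 9.4% of all genes tested. The pericyte list had a median of -0.37, 7 of 7 negative, and a sum of 566.2 to 710.1 CPM in KO lungs and 866.5 to 964.0 CPM in WT lungs. The 7 smooth muscle markers had a median of -0.39, 7 of 7 negative, with 0 passing. In 2 of the 7 the KO lungs all lay below the WT lungs, against 9.4% of all genes tested. The sum of the 7 was 406.0 to 525.0 CPM in KO lungs and 498.0 to 822.4 CPM in WT lungs.

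The ratio of Lrat to these sums is a description, since Lrat was chosen for its difference. Lrat amounted to 2.01%, 2.71% and 2.53% of the summed CPM of the alveolar fibroblast markers in KO lungs, against 2.74%, 4.07% and 3.55% in WT lungs. KO replicate 2 and WT replicate 1 were nearly equal. Against the pericyte sum it amounted to 16.9%, 24.0% and 26.5% in KO lungs and 22.2%, 29.0% and 27.9% in WT lungs, which overlap. Against the smooth muscle sum it amounted to 28.6% to 33.9% in KO lungs and 34.0% to 48.5% in WT lungs, with the ranges just apart. Of the 8 hepatic stellate cell markers other than Lrat, 4 had enough counts to be tested and 0 passed, with a median of -0.56. Their sum was 67.8 to 78.8 CPM in KO lungs and 89.8 to 91.2 CPM in WT lungs, most of it Hgf, and the defining marker Hand2 was at 0 in all 6 libraries. The part of these cell types in the Lrat difference was not tested.

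Of the 20 marker lists examined, 15 had 0 genes passing by edgeR. Besides the club cell, alveolar fibroblast and pericyte lists, 3 of 6 leukocyte markers passed as higher, against 1.12% of all genes tested. Their summed level was 1557 to 2054 CPM in KO lungs and 1199 to 1579 CPM in WT lungs. In the platelet list 1 of 5 passed as lower, against 0.336% of all genes tested. The platelet sum was 12.5 to 24.3 CPM in KO lungs and 44.6 to 67.8 CPM in WT lungs. Of 5 lymphatic endothelial markers 0 passed and 5 were negative, with a median log2 difference of -0.44. In 3 of these the KO lungs all lay below the WT lungs, against 9.4% of all genes tested. The fat cell marker Adipoq was at 0 in all 6 libraries.

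Genes with a profile near that of Lrat over the 6 libraries were sought by the root mean square difference of centred log2(CPM + 1) values. The search covered 10340 genes with a mean log2 CPM of at least 3, without the 9 genes, pseudogenes, and Gm or Rik symbols. Rbp4, Stra6, Aldh1a2 and Rarb lie below that level and are thus ranked among more abundant genes. The nearest were Plekha8 (0.147), Synpo2 (0.148), Sulf1 (0.152), Pgm2l1 (0.152) and Vwf (0.158), where 0 would be an identical profile. Plekha8 encodes a glycolipid transfer protein, Synpo2 an actin-binding protein of muscle, Sulf1 an enzyme that trims heparan sulphate, and Vwf the von Willebrand factor of endothelium and platelets. Of the other 8 of the 9 retinoid genes, Aldh1a1 was the nearest at 0.312, with 561 of the 10340 genes nearer. Rarb followed at 0.404 and Cyp26b1 at 0.407, with 3067 and 3174 genes nearer. Size counts here as well as shape: Rara, with a log2 difference of 0.01, was at 0.425. Rarb (-0.10) and Cyp26b1 (-1.13) thus scored alike, and their order does not say which follows Lrat better. The measure uses the same KO and WT values for which Lrat was chosen, and the 5 genes were picked for being nearest, so their closeness is given as a description.

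**Figure D3:**
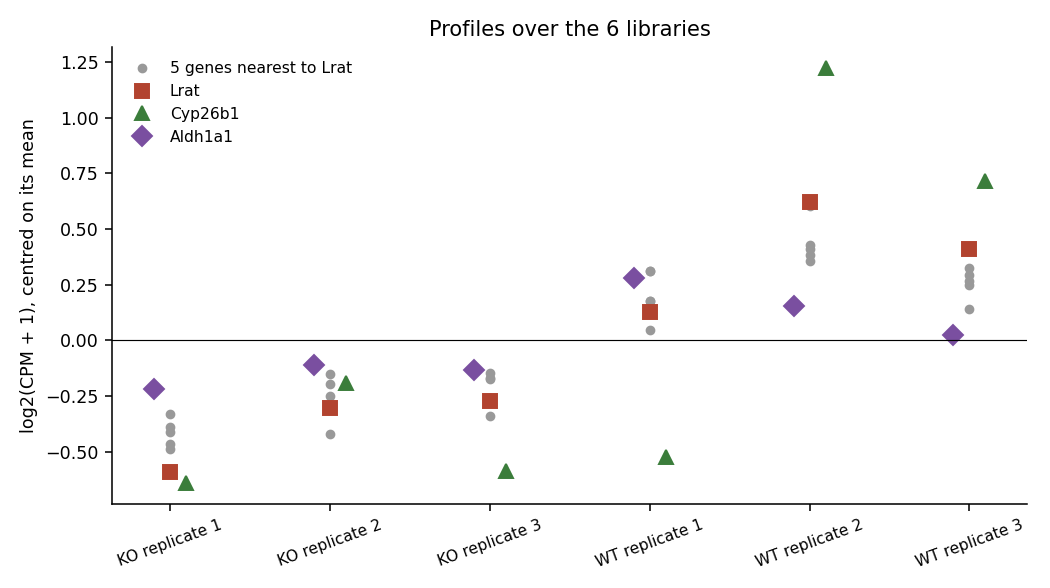
Centred log2(CPM + 1) of Lrat, Cyp26b1, Aldh1a1 and the 5 genes nearest to Lrat, by library, KO lungs left and WT lungs right. Each point is a library, and 0 is the gene's mean over the 6 libraries. Lrat and the 5 genes lie below 0 in all KO lungs and above 0 in all WT lungs, and Cyp26b1 is below 0 in WT replicate 1.

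Beyond the 9, other retinoid genes were taken from 7 pathway lists. The lists held 53 such genes, of which 36 had enough counts to be tested and 0 passed in either direction with edgeR. Since 1.45% of all genes tested passed, 0 of 36 is near that share and is no result about these genes. At an unadjusted p under 0.05 there were 5 of the 36, 3 higher and 2 lower, against 14.6% of all genes tested. With limma-voom 0 passed, and DESeq2 called 2 (Stra6l and Rarres2, both higher). Of the 36, 16 had positive and 20 negative log2 differences, with a median of -0.01. In 7 the KO lungs lay above and in 3 below all WT lungs, 27.8% together, against 19.7% of all genes tested.

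**Figure D4:**
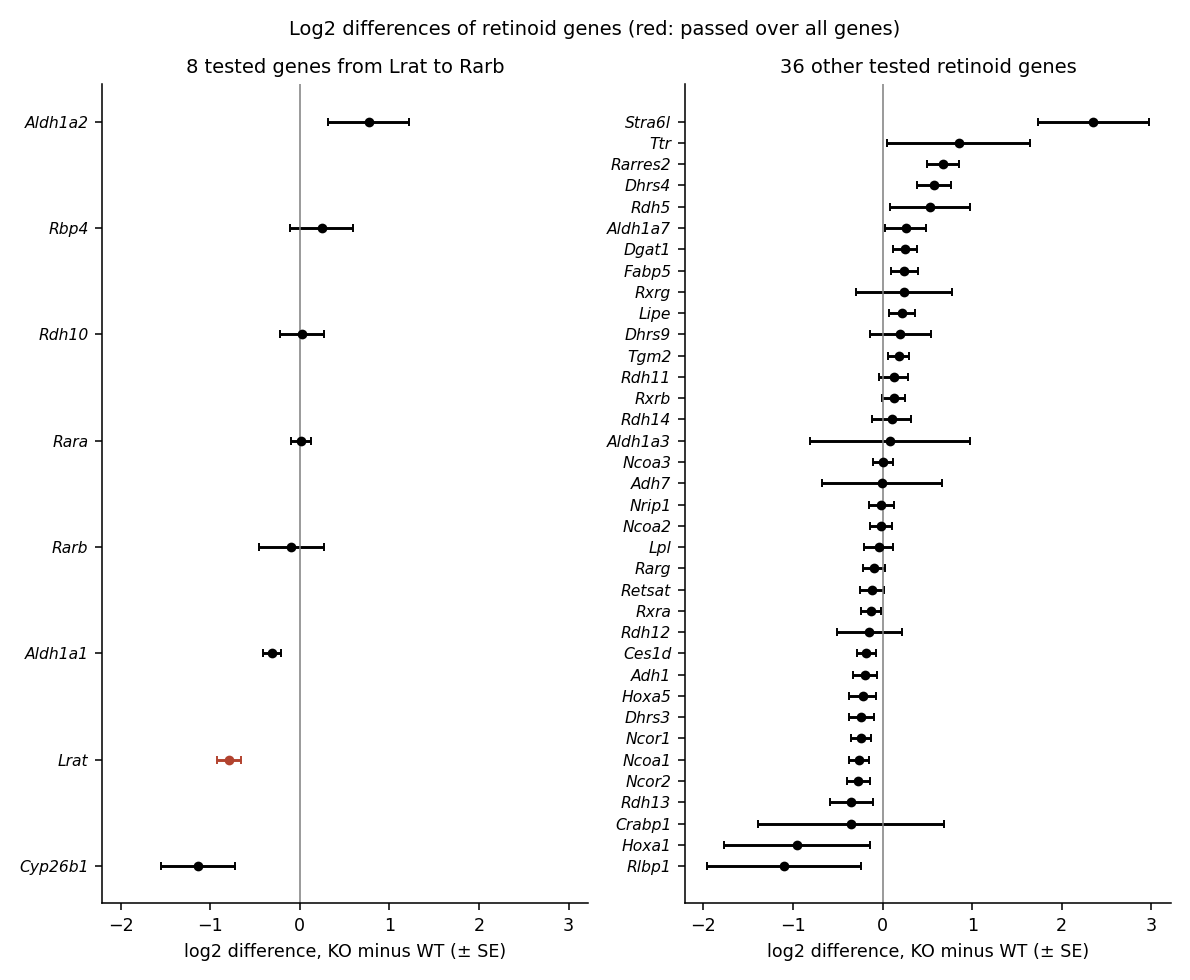
Log2 differences (KO minus WT) with their SE from edgeR for the 8 tested genes of the 9 (left) and for 36 other retinoid genes (right). Red marks the gene that passed over all genes, Lrat, and most of the other genes lie near 0.

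Among genes of binding and transport, 0 of the 5 tested genes passed, with a median of 0.24. Stra6l encodes a second membrane receptor for retinol-bound RBP4, known in mice from liver and intestine. It had 28, 71 and 58 counts in KO lungs, against 14, 10 and 6 counts in WT lungs. Every KO lung lay above every WT lung at these low counts, and the log2 difference, 2.35 ± 0.62, missed the threshold (edgeR adjusted p = 0.0829). It passed without KO replicate 1, with no filter on low counts, with DESeq2 and at a threshold of 0.1.

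Among genes of ester formation and hydrolysis, 0 of the 4 tested genes passed, with a median of 0.08. Dgat1, which encodes an acyltransferase that can also make retinyl esters, had 65.1, 68.9 and 68.3 CPM in KO lungs, against 47.1, 62.8 and 60.1 CPM in WT lungs. The KO lungs all lay above the WT lungs, with KO replicate 1 and WT replicate 2 close, and the log2 difference was 0.25 ± 0.13 (edgeR adjusted p = 0.401). Ces1d, a retinyl ester hydrolase gene in rodents, had a log2 difference of -0.18 ± 0.10. Its KO lungs (405, 394 and 399 CPM) all lay below its WT lungs (498, 443 and 418 CPM).

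Among the redox enzymes 0 of the 11 tested genes passed, with a median of -0.01. Dhrs4, which encodes a reductase that acts on retinal, had 18.8, 21.9 and 19.8 CPM in KO lungs, against 13.7, 14.9 and 12.0 CPM in WT lungs. The groups did not overlap, and the log2 difference, 0.57 ± 0.19, missed the threshold (edgeR adjusted p = 0.158). Dhrs3, which turns retinal back to retinol and is induced by retinoic acid, had a log2 difference of -0.24 ± 0.14. In the retinoic acid synthesis list, 0 of the 2 tested genes passed. Aldh1a7, the neighbour copy of Aldh1a1, had the smaller p, with a log2 difference of 0.26 ± 0.23 (edgeR adjusted p = 0.667). Whether its enzyme makes retinoic acid was not tested here.

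Of the other retinoic acid-degrading enzymes, neither had enough counts to be tested. Cyp26a1 had 14, 0 and 6 counts in KO lungs and 0, 0 and 5 counts in WT lungs, and Cyp26c1 had 0, 0 and 0 counts in KO lungs and 0, 1 and 5 counts in WT lungs. Cyp26b1 was thus the degrading enzyme gene with appreciable counts in these lungs.

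Of 10 receptors and cofactors, 0 passed, 8 were negative and the median was -0.06. The coactivator gene Ncoa1 had 77.3, 71.2 and 73.2 CPM in KO lungs, against 80.7, 92.6 and 93.4 CPM in WT lungs. The groups did not overlap, and the log2 difference, -0.27 ± 0.11, missed the threshold (edgeR adjusted p = 0.279). Rarg and Rxra had log2 differences of -0.10 ± 0.12 and -0.13 ± 0.11.

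Of 9 genes known to be induced by retinoic acid, 5 were tested and 0 passed, with 2 positive, 3 negative and a median of -0.22. Rarres2, which encodes chemerin, an attractant of leukocytes first known as retinoid-responsive in human skin, had 52.1, 48.2 and 67.7 CPM in KO lungs, against 35.2, 27.4 and 42.7 CPM in WT lungs. The groups did not overlap, and the log2 difference, 0.68 ± 0.18, missed the threshold (edgeR adjusted p = 0.0789). It passed without WT replicate 3, with the replicate block, with no filter on low counts, with DESeq2 and at a threshold of 0.1. Tgm2 (0.18 ± 0.12), Hoxa5 (-0.22 ± 0.15) and Dhrs3, 3 of the more abundant genes of this list, had differences on either side of 0.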

How the data were processed

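Paired-end reads were aligned to mm10 (GRCm38) with STAR 2.5 and counted with HTSeq 0.6.1, per the labels' design text and the submitters' processing notes. The authors deposited raw counts per Ensembl gene, a table for each of 6 libraries. Not given in the sources used here were the annotation release, strand setting and counting mode. Of 35275 rows, 0 named no gene. Symbols, positions and exonic lengths came from GENCODE M21 by Ensembl identifier, and 785 identifiers had no symbol. Of 15 pairs of libraries 0 were identical, and their counts differed by 14.7 to 51.8 times sampling variance (chi-square per degree of freedom).

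Counts were tested with edgeR 4.0.16 in R 4.3.3 (TMM, filterByExpr with a minimum count of 10, quasi-likelihood F-test with robust=TRUE, group alone, KO minus WT), with Benjamini-Hochberg adjustment over 15191 genes, a threshold of 0.05 and two-sided tests. SE is the log2 difference divided by the square root of F. CPM uses TMM-scaled library sizes. TPM does not and compares genes only. Alternatives were other scalings and filters, DESeq2 1.42.0, limma-voom (limma 3.58.1), robust=FALSE, a replicate block, single libraries left out and other thresholds. The procedure was also run on simulated counts drawn independently for each library. Outlying libraries were not simulated, so that run does not cover the dependence of the calls on single libraries. The 9 genes and the lists were chosen with earlier results of these data known. Besides the 9, genes were named where they passed or had the smallest p of a pathway list, or were among the 5 nearest to Lrat. Others, such as Ces1d, Dhrs3, Rarg, Rxra, Tgm2 and Hoxa5, were chosen after their values were seen. 1 further gene of the pathway is not reported here.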

Additional observations from a re-analysis of the deposited data

How the results depend on the processing

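Lrat was lower in KO lungs in all 15 alternatives, with log2 differences from -0.91 to -0.66, and passed in 13; it did not pass without KO replicate 2 or without WT replicate 2. Counts of genes over the whole table, 170 higher and 51 lower, were 578 and 225 with no filter on low counts, 353 and 232 with DESeq2, 309 and 96 with the replicate block, 23 and 2 at a threshold of 0.01, and 315 and 160 at 0.1. With single libraries left out they were 22 to 404 higher and 2 to 174 lower. Of the other retinoid pathway genes, 0 higher became 2 with no filter, 2 with DESeq2, 1 with the replicate block, 2 at 0.1 and 0 to 1 with single libraries left out. None became lower in any of these alternatives. The cause was not tested. The labels do not pair the samples, and deviations of equally numbered libraries correlated at -0.02 to 0.03, so the numbers were not used as pairs. Cyp26b1 passed with the replicate block, with no filter and without WT replicate 1. Of the log2 differences of the 8 tested genes, 119 stayed within the SD between replicates and 1, of Aldh1a2, did not. Stra6, which had too few counts to be tested with all libraries, could be fitted in 6 alternatives. These rest on the same low counts, so again no fold is stated. With the longest transcript as length, Lrat had 69.3 TPM in KO lungs and 128.7 TPM in WT lungs, and Aldh1a1 had 546.7 TPM in KO lungs and 726.6 TPM in WT lungs. The 3 libraries of each group limit the precision.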
